A study of Mus musculus with 16 samples.

Results

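The 40 genes described here encode the contractile, calcium-handling and energy-supplying proteins of adult skeletal muscle, together with a pair of ubiquitin ligases of muscle atrophy. They were picked by gene symbol, from a list drawn up with earlier results of these data known, out of 19439 genes listed in at least 1 of 16 RNA-seq libraries of mouse ear skin. Every symbol was found in every library. The set comprises 4 myosin heavy chains, 6 myosin light chains and binding proteins, 8 thin filament proteins, 10 proteins of titin, nebulin and the Z-disc, 5 of calcium handling, 5 of energy supply and 2 ubiquitin ligases. By textbook fibre type, 14 are typical of fast fibres, 7 of slow fibres and 19 of neither.

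The libraries came from 16 BALB/c mice aged 8 weeks, 1 library per mouse, whose ears were treated with imiquimod (IMQ), a drug that gives psoriasis-like inflammation on mouse skin. All 4 groups received imiquimod, so there was no group of untreated skin. The ears were also injected in the dermis with lysophosphatidylcholine (LPC, 10 µl at 10 mM), a membrane-active phospholipid with a single fatty acid chain, or with the same volume of saline, daily over 6 days. For each agent, 4 mice were killed on day 4, before such a course would have ended, and 4 on day 7, which gives 4 groups. How many injections the day 4 mice had received is not stated. The treatment label of the vehicle mice gives imiquimod only, and saline is taken from the series' design text. Neither the sex of the mice nor how skin was cut out is stated in the labels.

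The mouse ear is a thin sheet of epidermis and dermis over cartilage, with striated muscle and fat beneath the dermis, so whole-ear RNA can hold transcripts of fibres as well as of skin. In a fibre, myosin heads on the thick filament pull on actin in the thin filament, and calcium released from the sarcoplasmic reticulum permits this by binding troponin. Fast and slow fibres use different isoforms of the heavy chains, light chains, troponins and calcium pump. In bulk tissue, fewer fibres in a sample and less muscle RNA per fibre cannot be told apart.

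The libraries held between 18704197 and 20131513 expected counts and between 17215 and 17730 listed genes. The 10 epidermal markers examined, among them the keratins Krt5 and Krt14, were detected in every library at a summed level between 20215 and 53982 CPM (counts scaled to a fixed library size), so the skin label was met. No batch or date is given in the labels, so none could be examined.

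Sequences upstream of the 4 adult myosin heavy chain genes are shown first, because these isoforms define the fibre types compared here. Each is the stretch of 250 bases before the transcription start, read 5′ to 3′ on the gene's strand, from RefSeq on GRCm38.p6. Those of Myh2 (chr11:67170777-67171026), Myh1 (chr11:67199852-67200101) and Myh4 (chr11:67237562-67237811) lie on the plus strand in 1 cluster of neighbouring genes. That of Myh7 (chr14:54994627-54994876) lies on the minus strand. Capitals mark matches, on either strand, to the MEF2 motif, the CArG box and TATAAA.
Myh2: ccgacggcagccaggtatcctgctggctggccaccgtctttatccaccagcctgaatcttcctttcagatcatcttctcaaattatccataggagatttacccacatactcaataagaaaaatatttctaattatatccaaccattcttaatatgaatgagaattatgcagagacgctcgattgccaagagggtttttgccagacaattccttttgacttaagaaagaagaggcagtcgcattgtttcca
Myh1: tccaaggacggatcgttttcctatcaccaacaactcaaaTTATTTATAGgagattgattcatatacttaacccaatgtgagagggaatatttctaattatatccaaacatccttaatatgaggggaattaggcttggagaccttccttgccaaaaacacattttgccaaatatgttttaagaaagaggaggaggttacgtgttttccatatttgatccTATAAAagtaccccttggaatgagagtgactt
Myh4: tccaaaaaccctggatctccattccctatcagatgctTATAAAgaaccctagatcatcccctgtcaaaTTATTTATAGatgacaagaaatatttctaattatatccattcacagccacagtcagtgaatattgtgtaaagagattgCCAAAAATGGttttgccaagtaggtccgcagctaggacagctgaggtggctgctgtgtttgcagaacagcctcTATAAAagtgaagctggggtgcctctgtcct
Myh7: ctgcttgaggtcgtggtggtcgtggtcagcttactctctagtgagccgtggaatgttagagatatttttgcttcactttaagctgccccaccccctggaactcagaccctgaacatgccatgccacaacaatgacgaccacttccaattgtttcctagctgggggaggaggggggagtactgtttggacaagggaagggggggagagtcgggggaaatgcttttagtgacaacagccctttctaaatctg
The same MEF2 match stood at -211 to -202 from the start in Myh1 and at -182 to -173 in Myh4, and in both it overlapped a TATAAA match on the other strand. Another TATAAA stood at -32 to -27 in Myh1 and at -31 to -26 in Myh4. Myh4 alone of the 4 held a CArG box, at -104 to -95. No capitals appear in the windows of Myh2 and Myh7, which says only that these letters are not in those bases.

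The promoter table held 32 of the 40 genes, in 39 windows. An E-box (CANNTG, the motif of myogenic bHLH factors) was found in 33 of these 39 windows (84.6%), against 66.2% of all 32817 windows of the same length. The MEF2 motif was found in 5 windows (12.8%) against 2.92%, and the CArG box of serum response factor in 5 (12.8%) against 1.47%. The MCAT motif (CATTCC), bound by TEAD factors, was found in 11 windows (28.2%) against 12.6%, and TATAAA in 7 (17.9%) against 12.4%. Windows of 1 gene can share bases. Both strands were searched for each motif, and a match describes letters, not binding.

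**Figure D1:**
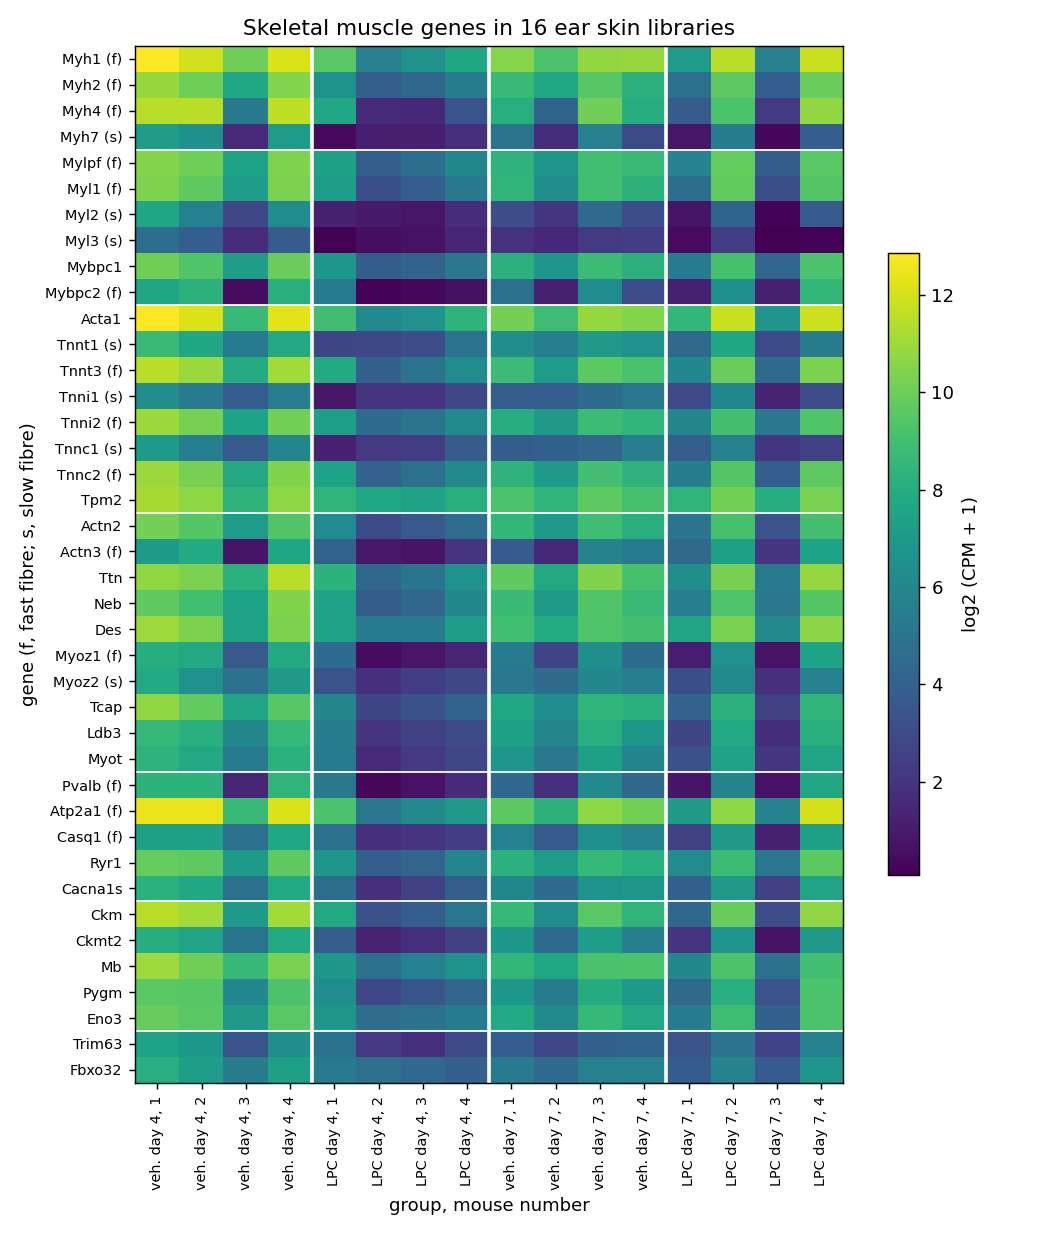
Level of each of the 40 genes (rows, ordered by role; f marks fast fibre and s slow fibre genes) in each of the 16 libraries (columns, by group and mouse), as log2 of CPM plus 1. Some columns differ from others of the same group: vehicle day 4 mouse 3 is dark beside mice 1, 2 and 4, and LPC day 7 mice 1 and 3 are dark beside mice 2 and 4.

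The amount of muscle transcript differed strongly between mice. The 40 genes together took 5.57%, 4.06%, 0.636% and 4.83% of the expected counts in vehicle day 4 mice 1 to 4, and 0.524%, 0.0741%, 0.0899% and 0.210% in the LPC day 4 mice. At day 7 the shares were 1.11%, 0.438%, 1.80% and 1.32% with vehicle and 0.169%, 2.38%, 0.0847% and 3.05% with LPC. At day 4 every vehicle library was above every LPC library, with vehicle mouse 3 (0.636%) next to LPC mouse 1 (0.524%), while at day 7 the LPC mice lay on both sides of the vehicle mice. Group means ± SD (n = 4) were 3.77 ± 2.18% and 0.225 ± 0.209% at day 4, and 1.17 ± 0.567% and 1.42 ± 1.52% at day 7, for vehicle and LPC respectively. The highest library exceeded the lowest by 75.1-fold.

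**Figure D2:**
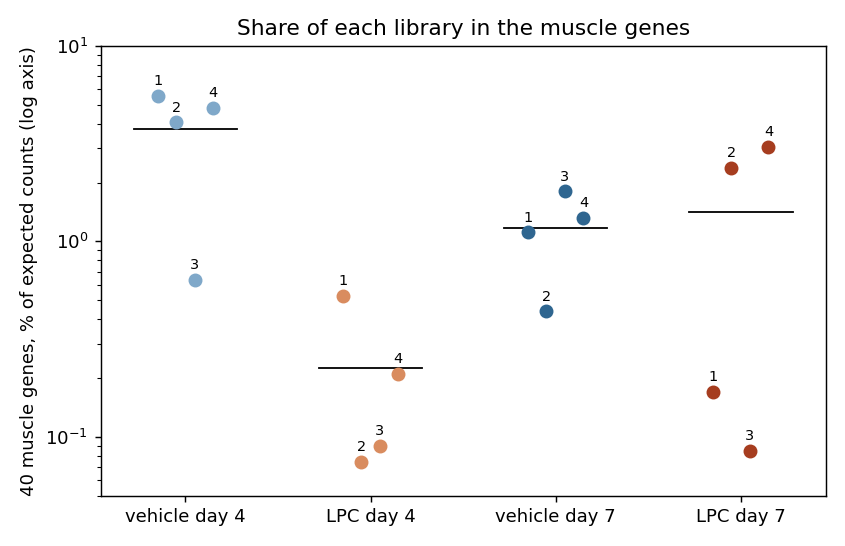
Share of each library's expected counts that fell in the 40 muscle genes, in percent on a log axis. Points are single mice with their number and lines are group means, which run from 0.225% in LPC day 4 to 3.77% in vehicle day 4. The 4 LPC day 4 mice lie below the 4 vehicle day 4 mice, and the LPC day 7 mice split into a pair above 2% and a pair below 0.2%.

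Most of the 40 genes followed the same order of mice. Vehicle day 4 mouse 3 was the lowest of its group for 40 of 40 genes, against 27.3% of all genes tested. Vehicle day 7 mouse 2 was the lowest of its group for 39, against 28.2%. In LPC day 7, mouse 3 was the lowest for 39 genes (25.9% of all genes tested). Mouse 4 was the highest for 29 (23.3%) and mouse 2 for the other 11 (25.2%). LPC day 4 departed from this. Mouse 1 was the highest for 34 genes (27.8% of all genes tested), all 14 fast fibre genes included, yet the lowest for 5 (23.4%). Those 5 were slow fibre genes (Myh7, Myl3, Tnnt1, Tnni1 and Tnnc1). Across the 16 libraries the ratio of highest to lowest CPM ran from 13.6 for Tpm2, which is expressed outside skeletal muscle too, to 2561 for Mybpc2, a myosin-binding protein of fast fibres.

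At day 4, all 40 genes had lower estimated levels with LPC than with vehicle, but none passed the adjusted threshold. The median log2 fold change was -4.15 (median of all genes tested 0.00), with a range from -6.14 for Myh7 to -2.58 for Tpm2, and adjusted p lay between 0.0556 and 0.273 (edgeR quasi-likelihood test, Benjamini-Hochberg over 15782 genes). Of all genes tested 0.139% were called (0.0444% lower and 0.095% higher), and 0 of the 40. At an unadjusted p below 0.05, 39 of the 40 were lower, all but Mybpc2, against 10.2% of the genes tested, and 0 were higher, against 9.02%. For 25 of the 40, every LPC mouse was below every vehicle mouse, against 8.67% of the genes tested, and for 0 every LPC mouse was above, against 7.42%. The count of 25 holds for CPM with TMM scaling, which is used for single genes below. It was 29 on FPKM (9.83% of the genes tested) and 29 on CPM without TMM (10.1%). The count of called genes depended on the fit: DESeq2 called 38 of 40 lower (4.75% of all genes), limma-voom with sample weights 36 (6.37%), and edgeR on the day 4 groups alone 34 (6.07%). Without vehicle day 4 mouse 3, whose muscle genes were low, edgeR called 25 lower (3.54% of all genes). It called 0 without any other single mouse of the day 4 groups, where between 0% and 0.0251% of all genes were called lower.

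At day 7, by contrast, 0 of 40 genes were called (background 3.83%, 1.44% lower and 2.38% higher) and 0 of 40 had an unadjusted p below 0.05 (background 8.47% lower and 11.3% higher). DESeq2 and limma-voom also called 0, against 9.18% and 1.33% of all genes. The median log2 fold change was 0.22 (all genes 0.02), with 27 genes positive and 13 negative and a range from -1.38 for Myl3 to 2.05 for Mybpc2. The sign depended on the fit. On log2(FPKM + 0.1) the median was -1.18, with 36 of 40 negative, and limma-voom gave -0.74, with 33 negative. With mouse number as a block edgeR gave -0.35, with 31 negative, while DESeq2 gave 0.25, with 13 negative. No gene separated the groups in either direction (backgrounds 5.16% lower and 5.7% higher).

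**Figure D3:**
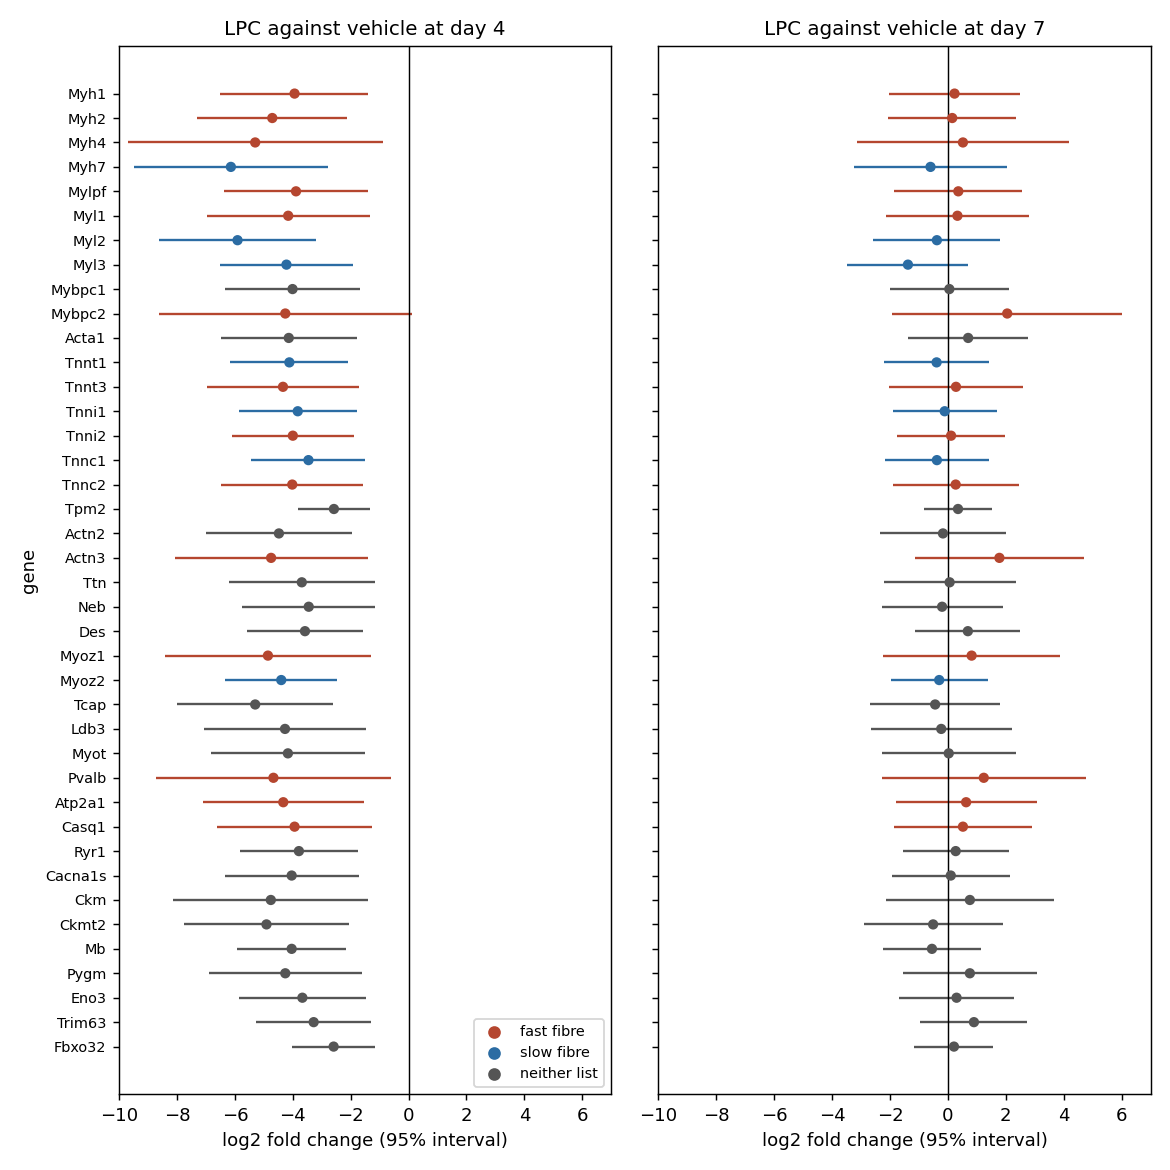
Log2 fold change of LPC against vehicle for each of the 40 genes at day 4 (left) and day 7 (right), from the edgeR fit to all 16 libraries, with 95% intervals; colours give the fibre type. All 40 points are negative at day 4, from -6.14 to -2.58, while at day 7 every interval spans 0, with 14 of 14 fast fibre genes positive and 7 of 7 slow fibre genes negative.

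The myosin heavy chains are the motors of the thick filament: Myh4 encodes the fastest isoform (IIb), Myh1 IIx, Myh2 IIa and Myh7 the slow isoform shared with the heart. Myh1 (Entrez 17879, chromosome 11, 67200102 to 67224577 on GRCm38) was the highest of the 4 per length in all 16 libraries. At day 4 it had 7403, 4069, 1050.4 and 4717 CPM with vehicle and 773, 49.6, 97.8 and 200.4 CPM with LPC in mice 1 to 4. All 4 LPC mice were below the lowest vehicle mouse, and the log2 fold change with its SE was -3.94 ± 1.20, adjusted p = 0.0968 (n = 4 per group). At day 7 it had 1492, 594, 1779 and 1890.5 CPM with vehicle and 142, 2939, 48.7 and 3612 CPM with LPC, so LPC mice 2 and 4 were above, and mice 1 and 3 below, all vehicle mice.

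Myh2 (Entrez 17882, chromosome 11, 67171027 to 67197517) had 1898, 1032, 209 and 1449 CPM with vehicle and 100.2, 14.6, 18.5 and 42.1 CPM with LPC at day 4, without overlap (log2 fold change -4.71 ± 1.21, adjusted p = 0.0680). At day 7 its levels were 411, 208, 731 and 315 CPM with vehicle and 27.2, 836, 13.6 and 969.6 CPM with LPC. The same pair of LPC mice was high as for Myh1.

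Myh4 (Entrez 17884, chromosome 11, 67237812 to 67260447) separated mice within groups most among the heavy chains. At day 4 it had 2839, 2945, 36.96 and 3188 CPM with vehicle and 216, 2.05, 1.82 and 9.57 CPM with LPC. Vehicle mouse 3 fell below LPC mouse 1, so the groups overlapped (log2 fold change -5.30 ± 2.06, adjusted p = 0.179). Without LPC mouse 1 the value was -8.97 (adjusted p = 0.113). By day 7 the levels were 278, 17.4, 1088 and 262 CPM with vehicle and 12.3, 606, 3.80 and 1745 CPM with LPC, and the groups overlapped again (log2 fold change 0.52 ± 1.72, adjusted p = 0.912, and -1.25 on log2(FPKM + 0.1)).

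Myh7 (Entrez 140781, chromosome 14, 54970684 to 54994626) was the lowest heavy chain per length in every library. It had 149.5, 87.4, 2.17 and 136 CPM with vehicle and 0.320, 1.22, 1.19 and 2.54 CPM with LPC at day 4, where LPC mouse 4 was above vehicle mouse 3 (log2 fold change -6.14 ± 1.57, adjusted p = 0.0667). Its day 7 values were 31.3, 2.37, 48.1 and 6.65 CPM with vehicle and 0.783, 43.4, 0.272 and 13.8 CPM with LPC. The transcript of Myh7 shares 11.2% of its windows of 100 bases with that of the cardiac gene Myh6, and that of Myh1 shares 7.59% with Myh2 and 2.22% with Myh4, so RSEM could divide some reads between these neighbours.

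Of the summed FPKM (fragments scaled by transcript length and depth) of the 4 heavy chains, Myh1 made up between 48.8% and 82.1% in every library. Myh4 made up 23.1, 36.3, 2.85 and 33.6% in vehicle day 4 mice 1 to 4, 19.8, 3.06, 1.54 and 3.77% in LPC day 4, 12.6, 2.12, 29.9 and 10.6% in vehicle day 7 and 6.77, 13.7, 5.73 and 27.6% in LPC day 7. Of the 8 libraries with the least muscle transcript, 7 had a Myh4 share of at most 6.77%, and LPC day 4 mouse 1 had 19.8%. Myh7 made up between 0.0285% (LPC day 4 mouse 1) and 1.78% (LPC day 4 mouse 2). In the LPC day 4 mouse with 19.8% Myh4, the slow isoform was thus at its lowest share of all 16 libraries. That share rests on few reads, with Myh7 at 0.320 CPM and an FPKM of 0.05.

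**Figure D4:**
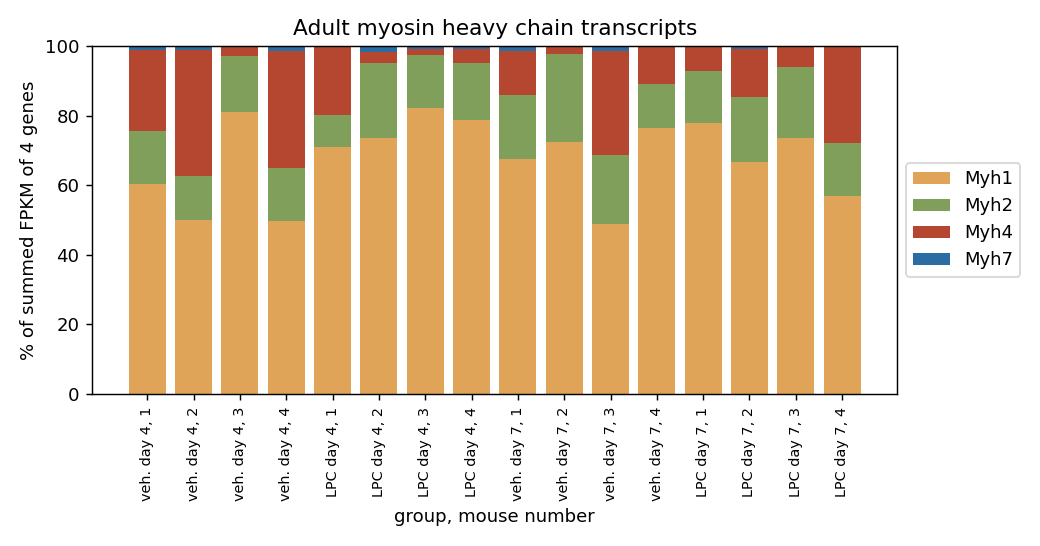
Composition of the adult myosin heavy chain transcripts in each library, as percent of the summed FPKM of Myh1, Myh2, Myh4 and Myh7. Myh1 is the largest part in all 16 bars, Myh4 is smallest in mouse 3 of LPC day 4 (1.54%) and greatest in mouse 2 of vehicle day 4 (36.3%), and Myh7 is a thin band of at most 1.78%.

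The light chains stabilise the myosin neck. Mylpf, the fast regulatory light chain, had 1414, 1058, 181 and 1321 CPM with vehicle and 169, 14.2, 24.9 and 59.6 CPM with LPC at day 4, then 328, 109, 509 and 419 CPM with vehicle and 52.2, 927, 13.2 and 763 CPM with LPC at day 7. Myl1, the fast essential light chain, had 1344, 860.2, 137 and 1271 CPM with vehicle and 143, 8.11, 14.1 and 37.4 CPM with LPC at day 4, then 349, 84.7, 508 and 318 CPM with vehicle and 24.7, 867, 7.99 and 681 CPM with LPC at day 7. For Mylpf the day 4 groups did not overlap, while for Myl1 vehicle mouse 3 (137 CPM) and LPC mouse 1 (143 CPM) crossed.

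Per length, Mylpf exceeded its slow counterpart Myl2 by 6.03-fold to 108-fold over the 16 libraries. The ratio was 6.03 to 25.9 in vehicle day 4 and 108, 12.3, 28.8 and 22.4 in LPC day 4 mice 1 to 4. In LPC day 7 it was 83.6, 44.7, 69.9 and 52.5, so mouse 4 did not stand apart for this pair. Myl2, the slow regulatory chain, had 196, 51.4, 5.99 and 78.3 CPM with vehicle and 1.39, 1.03, 0.779 and 2.29 CPM with LPC at day 4, without overlap (log2 fold change -5.91 ± 1.27, adjusted p = 0.0570), and 7.45, 3.30, 21.03 and 7.97 CPM with vehicle and 0.722, 17.4, 0.163 and 12.1 CPM with LPC at day 7. Myl3, the slow essential chain, had 24.4, 14.03, 2.22 and 13.02 CPM with vehicle and 0.107, 0.489, 0.623 and 1.63 CPM with LPC at day 4, then 2.71, 1.91, 3.74 and 4.30 CPM with vehicle and 0.361, 4.22, 0.0543 and 0.156 CPM with LPC at day 7. Its expected counts in LPC day 7 mice 1 to 4 were 6, 84, 1 and 3, few reads in mice 1, 3 and 4. At day 7 its log2 fold change was -1.38 ± 0.98 (adjusted p = 0.482), and without LPC mouse 2 it was -4.05 (adjusted p = 0.0346, where 1.49% of all genes fell).

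Myosin-binding protein C holds myosin heads in the thick filament. Mybpc2, the fast form, had 193, 308, 0.435 and 272 CPM with vehicle and 39.4, 0.147, 0.260 and 0.560 CPM with LPC at day 4. Vehicle mouse 3 lay within the LPC range, and LPC mouse 1 stood above its group (log2 fold change -4.26 ± 2.05, adjusted p = 0.273). Without that mouse the value was -9.21 (adjusted p = 0.131). At day 7 it had 26.1, 1.39, 77.9 and 7.48 CPM with vehicle and 1.32, 88.7, 1.41 and 375 CPM with LPC (log2 fold change 2.05 ± 1.86, adjusted p = 0.606). Without LPC day 7 mouse 4 the value was 0.12. Mybpc1, which is made in both fibre types, ranged from 150.3 to 1093 CPM with vehicle at day 4 and from 13.4 to 118 CPM with LPC, without overlap.

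In the thin filament, Acta1, skeletal muscle actin (Entrez 11459, chromosome 8, 123891758 to 123894775), had the highest mean FPKM of the 40 genes over the 16 libraries, at 1323. It had 7164, 4587, 421 and 5233 CPM with vehicle and 489, 67.5, 91.1 and 337 CPM with LPC at day 4, where vehicle mouse 3 was below LPC mouse 1 (log2 fold change -4.14 ± 1.10, adjusted p = 0.0695). At day 7 it had 1146, 477, 1792 and 1449.7 CPM with vehicle and 376, 3569, 105 and 3829 CPM with LPC, with log2 fold change 0.70 ± 0.97 (adjusted p = 0.763), which was -0.46 on log2(FPKM + 0.1).

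Tpm2, beta-tropomyosin, which is also made in smooth muscle, varied least. It had 2352, 1661, 337 and 1663 CPM with vehicle and 346, 209, 173 and 279 CPM with LPC at day 4 (log2 fold change -2.58 ± 0.58, adjusted p = 0.0585) and 609, 358, 836 and 563 CPM with vehicle and 349, 1163, 258 and 1239.6 CPM with LPC at day 7. At day 4 vehicle mouse 3 and LPC mouse 1 crossed.

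The troponins offer fast and slow forms of each subunit, and were compared as pairs. For troponin T, which anchors the complex on tropomyosin, fast Tnnt3 had 2957, 1932, 248 and 2140.1 CPM with vehicle and 238, 15.1, 30.8 and 75.6 CPM with LPC at day 4, then 449, 133, 785 and 575 CPM with vehicle and 65.01, 992, 21.4 and 1279 CPM with LPC at day 7. Slow Tnnt1 had 407, 201, 39.3 and 221 CPM with vehicle and 5.82, 6.30, 7.68 and 30.02 CPM with LPC at day 4 (log2 fold change -4.12 ± 0.96, adjusted p = 0.0617) and 82.5, 46.3, 119.9 and 92.7 CPM with vehicle and 21.7, 188, 6.68 and 43.6 CPM with LPC at day 7. Neither gene overlapped between the day 4 groups. The ratio of Tnnt3 to Tnnt1 in FPKM was 7.06, 9.36, 6.20 and 9.38 in vehicle day 4 and 39.8, 2.33, 3.98 and 2.46 in LPC day 4, so LPC mouse 1 was above, and LPC mice 2 to 4 below, all vehicle mice. At day 7 the ratio was 5.25, 2.79, 6.36 and 6.03 with vehicle and 2.87, 5.08, 3.11 and 28.7 with LPC, and LPC mouse 4 stood above all others of that day.

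For troponin I, the inhibitory subunit, fast Tnni2 had 1938, 1189, 179 and 1179 CPM with vehicle and 154, 22.4, 30.4 and 73.1 CPM with LPC at day 4, then 265, 123, 459 and 352 CPM with vehicle and 57.5, 538, 35.6 and 666 CPM with LPC at day 7. Slow Tnni1 had 83.8, 38.7, 13.9 and 45.8 CPM with vehicle and 0.854, 2.98, 3.01 and 5.95 CPM with LPC at day 4, then 14.6, 13.8, 23.1 and 33.1 CPM with vehicle and 6.32, 62.8, 1.52 and 7.58 CPM with LPC at day 7. Both were without overlap at day 4 and overlapped at day 7. The FPKM ratio of Tnni2 to Tnni1 was 33.7, 44.04, 18.3 and 37.2 in vehicle day 4, 253, 9.07, 12.6 and 16.2 in LPC day 4, 25.6, 11.9, 27.97 and 15.1 in vehicle day 7 and 11.96, 12.3, 25.3 and 127 in LPC day 7. The highest ratios of the 16 libraries were again those of LPC day 4 mouse 1 and LPC day 7 mouse 4, where Tnni1 had 16 and 146 expected counts.

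For troponin C, the calcium sensor, fast Tnnc2 had 1927, 1186, 218 and 1382 CPM with vehicle and 178, 15.8, 26.7 and 69.96 CPM with LPC at day 4, then 331, 123, 516 and 338 CPM with vehicle and 44.8, 687, 13.96 and 836 CPM with LPC at day 7. Tnnc1, the slow and cardiac form, had 124, 47.9, 11.8 and 60.1 CPM with vehicle and 1.39, 3.62, 4.26 and 12.8 CPM with LPC at day 4, then 13.4, 14.7, 18.9 and 46.02 CPM with vehicle and 14.5, 48.8, 3.42 and 4.72 CPM with LPC at day 7. Tnnc2 did not overlap between the day 4 groups, while for Tnnc1 LPC mouse 4 was above vehicle mouse 3. Their FPKM ratio was 128, 4.36, 6.25 and 5.44 in LPC day 4 and 3.08, 14.02, 4.07 and 176 in LPC day 7. The same pair of mice was high, and Tnnc1 had 26 and 91 expected counts in them.

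In the Z-disc, Des, the intermediate filament desmin (Entrez 13346, chromosome 1, 75360292 to 75368579), had 1988, 1292, 172 and 1299.7 CPM with vehicle and 172, 40.2, 38.5 and 147 CPM with LPC at day 4. Vehicle mouse 3 lay above LPC mouse 1 by less than 1 CPM, so the groups touched without overlap. The day 7 values were 498, 241, 639 and 534 CPM with vehicle and 185, 1245, 67.7 and 1594 CPM with LPC. Tcap, which caps titin at the Z-disc, had 1690.4, 866, 187 and 742 CPM with vehicle and 58.1, 5.81, 8.46 and 16.4 CPM with LPC at day 4, without overlap, and 208, 76.8, 364 and 292 CPM with vehicle and 15.95, 324, 4.67 and 351 CPM with LPC at day 7.

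Neb, nebulin, the ruler of the thin filament, had 847, 511, 178 and 1396 CPM with vehicle and 171, 13.3, 18.6 and 65.3 CPM with LPC at day 4, then 445, 122, 675 and 429.9 CPM with vehicle and 45.3, 656, 33.9 and 723 CPM with LPC at day 7. Myot, myotilin, had 331, 221, 39.7 and 303 CPM with vehicle and 38.2, 2.10, 3.58 and 5.90 CPM with LPC at day 4, then 107, 34.8, 163 and 57.3 CPM with vehicle and 8.49, 172, 3.31 and 186 CPM with LPC at day 7. Both were without overlap at day 4, by a narrow margin between vehicle mouse 3 and LPC mouse 1. At day 7 Myot had the smallest log2 fold change of the 40, 0.03 ± 1.09 (adjusted p = 0.992), and -1.40 on log2(FPKM + 0.1).

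Actn3, the alpha-actinin of fast fibres, had 132, 237, 0.725 and 199 CPM with vehicle and 16.4, 0.928, 0.675 and 3.21 CPM with LPC at day 4, then 12.6, 1.96, 53.5 and 37.9 CPM with vehicle and 21.5, 158, 2.93 and 180.1 CPM with LPC at day 7. Vehicle day 4 mouse 3 lay within the LPC range of that day. Its day 7 log2 fold change was 1.78 ± 1.37 (adjusted p = 0.525). The alpha-actinin Actn2, present in all fibres, ranged from 133 to 1151 CPM with vehicle at day 4 and from 6.74 to 76.00 CPM with LPC, without overlap.

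Calsarcins tether calcineurin to the Z-disc, Myoz1 mainly in fast fibres and Myoz2 in slow fibres and heart. Myoz1 had 259.8, 231, 11.3 and 226 CPM with vehicle and 22.3, 0.391, 0.831 and 1.68 CPM with LPC at day 4, then 39.9, 5.77, 85.2 and 22.99 CPM with vehicle and 1.08, 90.9, 0.706 and 178 CPM with LPC at day 7. Myoz2 had 231, 93.01, 26.4 and 120.3 CPM with vehicle and 9.34, 2.64, 4.47 and 5.90 CPM with LPC at day 4, where its adjusted p of 0.0556 was the lowest of the 40 (log2 fold change -4.40 ± 0.91), and 35.6, 23.03, 61.6 and 46.5 CPM with vehicle and 7.95, 71.4, 2.61 and 53.1 CPM with LPC at day 7. Myoz2 did not overlap at day 4, while Myoz1 did. The FPKM ratio of Myoz1 to Myoz2 ran from 0.120 (LPC day 7 mouse 1) to 2.98 (LPC day 7 mouse 4), and LPC day 4 mouse 1 had 2.15 against 0.135 to 0.252 in the other mice of its group.

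Among calcium-handling genes, Atp2a1, the fast calcium pump of the sarcoplasmic reticulum, had 5785, 5797, 418 and 4636 CPM with vehicle and 597, 33.7, 71.5 and 123 CPM with LPC at day 4, then 784, 324, 1667 and 1138 CPM with vehicle and 125, 1663, 54.9 and 4213 CPM with LPC at day 7. At day 4 only vehicle mouse 3 lay within the LPC range. Pvalb, parvalbumin, the calcium buffer of the fastest fibres, had 325, 322, 1.74 and 350.1 CPM with vehicle and 36.3, 0.293, 0.623 and 1.98 CPM with LPC at day 4, then 19.3, 2.52, 69.9 and 18.5 CPM with vehicle and 0.722, 54.5, 0.598 and 205 CPM with LPC at day 7. Its highest library exceeded its lowest 1194-fold, and vehicle day 4 mouse 3 lay within the LPC range.

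Among energy genes, Ckm, muscle creatine kinase, had 2891, 2201, 125 and 2189 CPM with vehicle and 219, 8.36, 13.8 and 32.6 CPM with LPC at day 4, then 399.8, 74.5, 757 and 341 CPM with vehicle and 19.3, 940.2, 7.66 and 1691 CPM with LPC at day 7. Mb, myoglobin, the oxygen store of oxidative fibres, had 2041, 1102, 396 and 1242 CPM with vehicle and 116, 26.3, 51.2 and 96.3 CPM with LPC at day 4 (log2 fold change -4.04 ± 0.89, adjusted p = 0.0585) and 376, 216, 585 and 602 CPM with vehicle and 62.1, 622, 25.6 and 507 CPM with LPC at day 7. Mb did not overlap at day 4, and Ckm did, through vehicle mouse 3.

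Trim63 (MuRF1) and Fbxo32 (atrogin-1) are ubiquitin ligases that rise in wasting muscle. Trim63 had 178, 118, 9.57 and 86.8 CPM with vehicle and 27.5, 3.52, 2.49 and 6.87 CPM with LPC at day 4, then 13.6, 6.08, 15.2 and 17.02 CPM with vehicle and 9.15, 29.5, 5.32 and 52.99 CPM with LPC at day 7. Fbxo32 had 278, 143, 42.6 and 159.6 CPM with vehicle and 40.7, 26.97, 20.8 and 14.9 CPM with LPC at day 4 (log2 fold change -2.59 ± 0.68, adjusted p = 0.0689) and 40.5, 22.4, 48.5 and 52.4 CPM with vehicle and 12.8, 55.2, 12.4 and 109 CPM with LPC at day 7. Their median log2 fold change at day 4, -2.94, was smaller in size than that of the 4 heavy chains, -5.00, and that difference was not tested. Fbxo32 did not overlap between the day 4 groups, with its lowest vehicle value in mouse 3 and its highest LPC value in mouse 1.

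The other members were also lower on average with LPC at day 4. Ttn, titin, ranged from 301 to 2820.3 CPM with vehicle and from 19.3 to 322 CPM with LPC. Casq1, the calsequestrin of fast fibres, ranged from 28.6 to 207 and from 2.54 to 26.5 CPM. Ryr1, the calcium release channel, ranged from 128 to 917 and from 14.6 to 104 CPM, and Cacna1s, its voltage sensor, from 26.9 to 306 and from 2.64 to 25.3 CPM. The Z-disc gene Ldb3, the mitochondrial creatine kinase Ckmt2, the glycogen phosphorylase Pygm and the muscle enolase Eno3 completed the set. Of these 8, Ttn and Pygm overlapped between the day 4 groups and the other 6 did not.

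Fast and slow fibre genes were set against each other within each library, as the mean log2(FPKM + 0.1) of the 14 fast genes minus that of the 7 slow genes. The difference was 2.28, 3.22, 1.67 and 3.03 in vehicle day 4 mice 1 to 4 and 5.42, 0.60, 0.99 and 1.00 in LPC day 4. It was 2.56, 1.37, 2.91 and 2.29 in vehicle day 7 and 1.59, 2.75, 1.88 and 5.59 in LPC day 7. The 2 libraries above 5 were LPC day 4 mouse 1 and LPC day 7 mouse 4, while the other 14 lay between 0.60 and 3.22. On log2(FPKM + 1), where few reads weigh less, those 2 libraries had 4.40 and 5.15. LPC day 4 mice 2 to 4 lay below all vehicle mice of that day. Group means ± SD (n = 4) were 2.55 ± 0.71, 2.00 ± 2.29, 2.28 ± 0.66 and 2.95 ± 1.83 in the same order, so the groups differed by less than the spread within LPC groups.

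**Figure D5:**
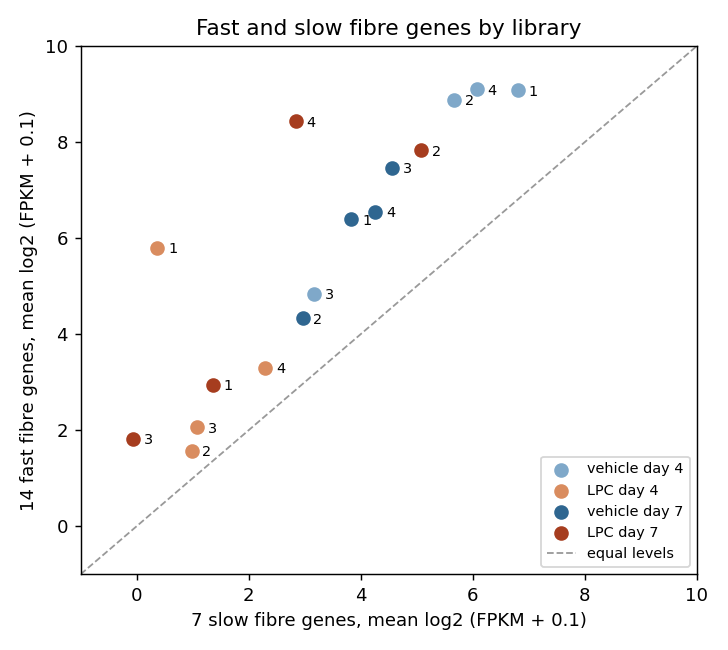
Mean log2(FPKM + 0.1) of the 14 fast fibre genes against that of the 7 slow fibre genes in each library, numbered by mouse; the dashed line marks equal levels. Most libraries lie along a band 0.60 to 3.22 above the line, and LPC day 4 mouse 1 (5.42) and LPC day 7 mouse 4 (5.59) lie above it.

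Across mice, the median log2 fold change at day 4 was -4.30 for the 14 fast genes and -4.22 for the 7 slow genes. The closeness of these medians depended on single mice: without LPC day 4 mouse 1 they were -5.51 and -3.89, and without LPC day 4 mouse 4 they were -4.09 and -5.02. At day 7 it was 0.44 for the fast genes, with 14 of 14 positive, and -0.38 for the slow genes, with 7 of 7 negative, and no gene of either list was called. On log2(FPKM + 0.1) both day 7 medians were negative, -1.14 and -1.40, as they were with limma-voom, -0.59 and -1.04. DESeq2 gave 0.47 and -0.36. In edgeR without LPC day 7 mouse 4 the fast and slow medians were -0.41 and -0.57. Without LPC day 7 mouse 2 the fast median was 0.04 and the slow median -1.84, so the gap between them ran from 0.16 to 1.87 when single mice were left out. The genes of a list share libraries and are not replicates, so the split of signs has no test.

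Between the days, vehicle skin had lower estimated levels at day 7 than at day 4 for all 40 genes, with 0 called (edgeR; background 0%) and a median log2 fold change of -1.53 (all genes 0.00). At an unadjusted p below 0.05, 5 of 40 were lower (Myl2, Myl3, Tpm2, Trim63 and Fbxo32), against 5.67% of the genes tested, and 0 were higher, against 7.32%. DESeq2 called 0 (1.51% of all genes in either direction) and limma-voom called 5 lower (5.92% of all genes). The largest was Pvalb at -3.18 ± 1.77 (adjusted p = 0.469) and the smallest Neb at -0.81 ± 0.98 (adjusted p = 0.760). Myl2 was at -3.06 ± 1.09 (adjusted p = 0.275) and Trim63 at -2.92 ± 0.92 (adjusted p = 0.234). No gene separated the days (background 2.76% lower and 3.45% higher).

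In LPC skin, all 40 genes had higher estimated levels at day 7 than at day 4, with a median of 2.77 (all genes 0.03). Des alone rose, by 2.96 ± 0.91 in log2 terms (edgeR, adjusted p = 0.0497), so 1 of 40 was called against 11% of the genes tested (6.87% rose and 4.13% fell), and 33 of 40 had an unadjusted p below 0.05 (background 17.9% higher and 12.9% lower). The Des call was lost on log2(FPKM + 0.1) (2.20, adjusted p = 0.142) and with limma-voom (2.90, adjusted p = 0.0632). In edgeR it was lost without LPC day 7 mouse 2 (adjusted p = 0.106) or mouse 4 (adjusted p = 0.120). It was also lost without any 1 of LPC day 4 mice 1 to 3. Without LPC day 4 mouse 4, edgeR called 1 of the 40 higher (adjusted p = 0.0496, where 5.43% of all genes rose). DESeq2 called 23 of 40 higher (11.9% of all genes) and limma-voom 0 (5.24%). Without LPC day 7 mouse 3 edgeR called 18 (9.79%), and without mouse 1 it called 5 (8.06%). Actn3 had the largest estimate, 4.10 ± 1.52 (adjusted p = 0.0875), Acta1 had 3.00 ± 1.05 (adjusted p = 0.0736), and Myl3 the smallest, 0.76 ± 1.02 (adjusted p = 0.648). No gene separated the days (background 8.85% higher and 8.22% lower).

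The LPC effect differed in estimate between the days for all 40 genes, with a median difference (day 7 minus day 4) of 4.27 in log2 terms (all genes 0.00). None was called by edgeR (adjusted p between 0.159 and 0.316; background 0%), 39 of 40 had an unadjusted p below 0.05 (background 10.8% higher and 6.15% lower), and DESeq2 called 16 higher (2.81% of all genes) and limma-voom 0 (0.0317%). Actn3 had the largest difference, 6.53 ± 2.06 (adjusted p = 0.182), Acta1 had 4.84 ± 1.44 (adjusted p = 0.171) and Fbxo32 the smallest, 2.80 ± 0.92 (adjusted p = 0.186). Tpm2 had the lowest adjusted p, 0.159 (2.93 ± 0.79), and was called without vehicle day 4 mouse 3 (3.27, adjusted p = 0.0389, where 0.925% of all genes were called higher).

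Other genes of muscle behaved alike at day 4, where 0.139% of all genes tested were called. Of 30 further sarcomere and fibre genes, 29 were lower with LPC, with a median log2 fold change of -3.38 and 0 called. The smallest p belonged to Myom3, an M-band protein (-3.34 ± 0.74, adjusted p = 0.0585) and Nrap (-4.12 ± 0.92, adjusted p = 0.0585). Of 26 genes of excitation, calcium release and the sarcolemma, 26 were lower, with a median of -2.90 and 0 called, among them Chrne, a subunit of the adult acetylcholine receptor (-4.18 ± 0.87, adjusted p = 0.0556), and Sgca, alpha-sarcoglycan (-3.73 ± 0.80, adjusted p = 0.0570). Of 20 genes of muscle metabolism, 19 were lower, with a median of -3.17 and 0 called, among them Fabp3, a fatty acid carrier (-4.93 ± 1.16, adjusted p = 0.0617), and Slc2a4, the insulin-sensitive glucose transporter (-3.01 ± 0.71, adjusted p = 0.0645). At day 7 none of these 76 genes was called (background 3.83%), and the list medians were -0.16, 0.20 and 0.22.

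From day 4 to day 7 in LPC skin, 5 of these 76 genes rose in edgeR's test, a share no higher than the 6.87% of all genes that rose. They were Lmod3, a nucleator of thin filaments (3.81 ± 1.13, adjusted p = 0.0436), Casq2, a calsequestrin (2.71 ± 0.74, adjusted p = 0.0342), Cav3, the muscle caveolin (2.60 ± 0.79, adjusted p = 0.0487), Sgca (2.49 ± 0.77, adjusted p = 0.0493) and the lipase Lpl (2.07 ± 0.59, adjusted p = 0.0379), which fat also makes. The medians of the 3 lists were 2.09, 2.11 and 2.06.

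Markers of fat followed the muscle genes in part. At day 4, 10 of 10 adipocyte markers were lower with LPC and 0 were called (background 0.139%, median log2 fold change -2.55). At day 7, 10 of 10 were higher with LPC and 0 were called (background 3.83%, median 1.89, against 0.22 for the 40 muscle genes). Their summed level was 443 to 1728 CPM in vehicle day 4, 168 to 694 in LPC day 4, 148 to 756 in vehicle day 7 and 75.8 to 3817 in LPC day 7, and Lep was at 0 in 1 library. In the vehicle groups the mouse with the lowest sum, mouse 3 at day 4 and mouse 2 at day 7, was also the lowest for muscle. In LPC day 4 the fat sum was lowest in mouse 4, which was not the lowest for muscle, and in LPC day 7 it was lowest in mouse 1, while muscle was lowest in mouse 3. In every group the mouse with the highest fat sum also had the highest muscle share. These were mouse 1 in both day 4 groups, mouse 3 in vehicle day 7 and mouse 4 in LPC day 7. The part of this in the muscle results was not tested.

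From day 4 to day 7 in LPC skin, markers of further cell types had higher levels beside the muscle genes. Macrophage markers had a median log2 fold change of 1.85 with 4 of 8 called higher, against 6.87% of all genes. Neutrophil markers had 1.96 with 2 of 7 called, and endothelial markers 1.11 with 4 of 8. Fibroblast markers had 1.11 with 2 of 8, and adipocyte markers 3.67 with 1 of 10. The summed macrophage level was 296, 1939.5, 262 and 1152 CPM in LPC day 7 mice 1 to 4 and 166 to 338 CPM in LPC day 4. The endothelial sum was 232, 754, 272 and 546 CPM in the same LPC day 7 mice, and the smooth muscle sum 235, 632, 191 and 620.4 CPM. Mice 2 and 4, which were high for muscle, were the highest for all 3 of these sums. Neutrophil and epidermal sums ran the other way and were higher in mice 1 and 3. In LPC day 7 mice 1 to 4 the neutrophil sum was 11546, 5638, 12910 and 4494 CPM. The epidermal sum was 43957, 24485, 36309 and 28658 CPM. The part of this in the muscle results was not tested.

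At day 4 the medians of the other lists were nearer to 0 than that of the muscle genes. In that comparison 0.139% of all genes tested were called. Macrophage markers had a median of -0.99 (7 of 8 lower), endothelial markers -0.66 (7 of 8 lower), Schwann cell markers -0.65 (7 of 8 lower), neutrophil markers 0.61 (6 of 7 higher) and fibroblast markers 0.38 (6 of 8 higher), with 0 called in each. Their summed levels, with vehicle and with LPC, were 303 to 492 and 166 to 338 CPM for macrophages, 211 to 377 and 163 to 266 CPM for endothelium, 521 to 671 and 292 to 424 CPM for Schwann cells, 83.2 to 2487 and 439 to 2768 CPM for neutrophils, and 1072 to 2315 and 1190.2 to 3409.5 CPM for fibroblasts. All 10 epidermal markers were higher with LPC and 0 were called (median 0.41), with summed levels of 20215 to 24668 CPM with vehicle and 26870.0 to 31257 CPM with LPC. All 10 of the 12 cartilage markers that could be tested were lower and 0 were called (median -0.53). Their summed levels were 250.3 to 958 CPM with vehicle and 226 to 624 CPM with LPC, and Matn1 was at 0 in 8 libraries. Smooth muscle markers had a median of -0.56 (7 of 10 lower, 0 called), at 269 to 461 CPM with vehicle and 226 to 318 CPM with LPC. Cardiac markers had a median of 0.23 (4 of 8 lower, 0 called), at 45.2 to 97.2 CPM with vehicle and 34.7 to 68.3 CPM with LPC. Of the cardiac markers, Nppa did not exceed 1.01 CPM and Ryr2 0.747 CPM in any library, and Myh6 was at 0 in 2 libraries. The part of these differences in the muscle results was not tested either.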

How the data were processed

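RNA-seq of ear skin from 16 mice was grouped by the treatment, day and mouse number in the sample titles, since file names carry other days. Per the labels' protocols, the authors aligned reads to GRCm38 with Bowtie2 and quantified genes with RSEM, in versions not given in the sources used here, without a stated strand setting. The deposited files give an expected count per gene (an estimate that need not be whole, with ambiguous reads divided by a model), an FPKM value made by the authors, and a transcript length. A gene missing from a file was taken as 0.

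Expected counts were rounded, filtered with filterByExpr (15782 of 19439 genes kept, all 40 members included), scaled by TMM and fitted with edgeR 4.0.16 (R 4.3.3), by a quasi-likelihood test with a mean per group over all 16 libraries. P-values were adjusted by Benjamini-Hochberg over all genes tested and called below 0.05. Standard errors come from that model, and CPM uses the scaled library sizes. P-values measure the spread between mice. With 18704197 to 20131513 counts per library, counting error bears most on members with few reads in a library, such as Myl3, Mybpc2, Myl2 and Myh7.

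The members, the other gene lists and the alternatives were chosen with earlier results of these data known. Values per mouse are given for the heavy chains, the 2 members of highest mean FPKM in each role, those with the largest or smallest change in a comparison, called members and 6 pairs of fast and slow genes. Other genes named come from the lists, by smallest p. Those in the last part of the text were chosen after their values were seen. Alternatives were other scalings and filters, DESeq2 1.42.0, limma 3.58.1 (voom with sample weights, and log2 FPKM with pseudocounts of 0.1 and 1), only the groups compared, mouse number as a block, and leaving out each mouse. The edgeR step was also run on simulated counts for LPC against vehicle at day 4, with genes drawn independently. That run cannot speak to genes that move together by mouse.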

Additional observations from a re-analysis of the deposited data

Results flagged for a closer look

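In each group of 4 mice, the gap between an extreme mouse and its neighbour was set against the range of the group, by Dixon's 95% limit. Of 160 combinations of gene and group examined, plus the fast minus slow difference, 21 values stood apart. The rate of that limit, about 1 chance flag in 20 groups, holds for normally distributed values. For the genes the limit was applied to CPM, which ranged widely within groups, so the rate is not known here. Gene levels on a log2 scale were not examined this way, so the number and direction of gene flags hold for CPM only. The genes share libraries, so their flags are not independent.

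LPC day 4 mouse 1 gave 13 of the 21 values, and all were high. They were Myh4 at 216 CPM, Actn3 at 16.4 CPM, Mybpc2 at 39.4 CPM, Myoz1 at 22.2 CPM, Ckm at 219 CPM, Pvalb at 36.3 CPM, then Atp2a1 at 597 CPM, Casq1 at 26.5 CPM, Ldb3 at 43.8 CPM, Myot at 38.2 CPM, Pygm at 79.6 CPM and Eno3 at 114 CPM. The fast minus slow difference of 5.42 in that mouse stood apart too. No slow fibre gene was among them.

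Vehicle day 4 mouse 3 was low for 4 genes: Myh4 at 37.0 CPM, Myoz1 at 11.3 CPM, Pvalb at 1.74 CPM and Ryr1 at 128.4 CPM. LPC day 7 mouse 2 was high for a pair of slow fibre genes, Myl3 at 4.22 CPM and Tnni1 at 62.8 CPM. LPC day 4 mouse 4 was high for the slow gene Tnnt1 at 30.0 CPM. Vehicle day 7 mouse 4 was high for Tnnc1 at 46.0 CPM.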

How the results depend on the processing

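All 40 members stayed lower with LPC at day 4 under every alternative run, with medians from -4.67 (limma-voom) to -4.05 (log2(FPKM + 1)) and, leaving out each mouse, from -5.16 to -3.82. The count of called members there was 0 in the main fit, where 0.0444% of all genes were called lower. It was 38 with DESeq2 (4.75%), 36 with limma-voom (6.37%) and 34 with only the groups compared (6.07%). Leaving out a mouse gave 0 to 25, with 25 without vehicle day 4 mouse 3 (3.54%). At day 7, leaving out a mouse gave 0 to 1 called (Myl3, without LPC day 7 mouse 2, where 1.49% of all genes fell) and medians from -0.51 to 0.59. The day 7 median was also negative with limma-voom, on both FPKM scales and with the replicate block. Other fits turned single genes at day 7: Myh4 to -0.94 with limma-voom, -1.25 on log2(FPKM + 0.1), -0.90 on log2(FPKM + 1) and -0.77 with the replicate block, and to -0.99 without LPC day 7 mouse 4 (0.12 to 3.32 is the range for Mybpc2 and -0.99 to 1.67 for Myh4). Myot turned to -1.07, -1.40, -1.18 and -0.40 under the same 4 fits and ranged from -0.56 to 0.48 leaving out a mouse, and Acta1 turned to -0.46 on both FPKM scales and 0.00 with the block. The cause was not tested.

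For the days with vehicle, limma-voom called 5 lower (5.92% of all genes). For the days with LPC, 6.87% of all genes rose in the main fit. The single call became 0 with no filter, limma-voom, both FPKM scales, the replicate block and only the groups compared. In those fits between 3.52% and 5.24% of all genes rose. The count of called members became 23 with DESeq2 (11.9%) and 0 to 18 leaving out a mouse (9.79% where 18 were called). Myl3 there turned to -0.18 with limma-voom and -0.35 on log2(FPKM + 0.1), and ranged from -1.90 to 1.55 leaving out a mouse. The fast minus slow median there ranged from -0.35 to 2.02. For the difference between days, DESeq2 called 16 higher (2.81% of all genes). Leaving out a mouse gave 0 to 1 (0.925% where 1 was called).

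What mouse number stands for is not given in the labels. Same-numbered mice of the day 4 groups correlated in their deviations at 0.11, 0.10, 0.29 and 0.54. For vehicle day 4 mice 1, 3 and 4 the same-numbered LPC mouse had the highest correlation of its group. Same-numbered mice of the day 7 groups correlated at -0.08, -0.60, -0.35 and 0.15, and for none was the same number the highest. With mouse number as a replicate block, 0 members were called in every comparison, with medians of -4.11 at day 4 and -0.35 at day 7. For LPC against vehicle, that fit called 0.0127% of all genes at day 4 and 2.22% at day 7. It called 5.71% between the days with LPC. It called 0% between the days with vehicle and for the difference between days. Besides the number of mice, depth limits precision where counts are few: counts were low in single libraries for Myl3, Mybpc2, Myl2, Myh7, Pvalb and Myoz1, with as few as 1, 2.65, 3, 5.02, 6 and 8 expected counts.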

Other observations

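Genes of embryonic and regenerating fibres, outside the 40 and chosen after their values were seen, were also present. Myh3, the embryonic myosin heavy chain, had 322, 143, 89.3 and 194 CPM in vehicle day 4 mice 1 to 4 and 4.54, 13.2, 11.3 and 24.2 CPM in LPC day 4, without overlap. At day 7 it had 80.7, 86.9, 139 and 175 CPM with vehicle and 18.4, 312, 4.67 and 45.1 CPM with LPC. Myh3 was lowest of its group in LPC day 4 mouse 1, as 5 of the 7 slow fibre genes were. Myh8, the perinatal form, had 7.64, 166, 0.924 and 32.7 CPM in LPC day 7, where mouse 2 was again the highest.

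Actc1, cardiac actin, which young fibres also make, had 2.77, 103, 0.163 and 3.37 CPM in LPC day 7 mice 1 to 4, and at most 0.571 CPM in LPC day 4. Myog, myogenin, had 7.34, 48.6, 1.85 and 8.25 CPM in LPC day 7 and 0.640, 1.51, 2.54 and 20.4 CPM in LPC day 4. Between these groups 3 of the 11 developmental and regenerating muscle genes tested rose in edgeR's test, against 6.87% of all genes: Actc1 (log2 fold change 5.76 ± 1.57, adjusted p = 0.0330), the fusion gene Tmem8c, myomaker (5.53 ± 1.59, adjusted p = 0.0398), and Gm7325, myomixer (4.82 ± 1.38, adjusted p = 0.0389). LPC day 7 mice 2 and 4 had similar amounts of adult muscle transcript (2.38% and 3.05% of counts), but mouse 2 had the higher level of Myh3, Myh8, Actc1 and Myog and of all 7 slow fibre genes.

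Fat transcripts were highest in LPC day 7 mouse 4, where Adipoq (adiponectin) had 289 CPM and Cidec 423 CPM, against at most 61.1 and 168.8 CPM in the vehicle libraries. That mouse also had the highest level of 12 of the 14 fast fibre genes in its group.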
